A study of Mus musculus with 17 samples.

Results

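The genes described here encode the machinery that copies DNA in S phase and the enzymes that supply its deoxynucleotides. They were 46 genes chosen by name, from the licensing of replication origins to the packaging of new DNA into chromatin, and 44 of them were measured among 15780 genes with a symbol. Pcna and Chaf1a were not analysed here. Each measured gene had 1 probe set. The rule uses gene names and no threshold on a value, but the genes were proposed with earlier results of these data known.

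The values came from F4/80hi macrophages (cells with much of a surface antigen typical of macrophages), sorted from kidneys of NZB/W mice, a hybrid strain that develops lupus nephritis spontaneously, and hybridised to Affymetrix arrays. The remission group (4 arrays) came from mice 3 to 4 weeks after complete remission, which had been treated with 1 dose of cyclophosphamide, 6 doses of CTLA4Ig (a blocker of CD28 costimulation) and anti-CD154. The nephritic group (7 arrays) came from mice 2 to 6 weeks after proteinuria began, before terminal renal failure, and the prenephritic group (6 arrays) from mice 8 to 16 weeks old. All groups share the strain, the organ and the gate, age and disease differ together between the prenephritic group and the others, and the effects of remission and of the drugs cannot be told apart. Nothing in the labels says whether the arrays of a group came from separate mice, so p-values here reflect the spread among arrays, which may be technical. In bulk RNA, fewer cycling cells and less of these transcripts per cell cannot be told apart.

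Origins are licensed for replication when the origin recognition complex, Cdc6 and Cdt1 load the ring-shaped Mcm2 to Mcm7 helicase onto DNA in G1. Cyclin E and its kinase, with the E2F transcription factors, then drive cells into S phase, where the helicase is fired together with Cdc45 and the GINS complex, and DNA polymerases copy both strands. Tissue macrophages can renew themselves by local division, and S-phase transcripts are widely used as a sign of cycling cells.

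E2F factors bind promoters of many replication genes, so the 250 bases before the start of each gene were searched for the E2F motifs TTTCCCGC, TTTGGCGC, TTTCGCGC and TTTGCCGC on both strands. Promoter sequences from RefSeq (GRCm38.p6) were matched for 36 of the 44 measured genes. Only the most upstream start of each gene was searched, and 5 of these genes had over 1. A motif was present in 7 of these 36 (19.44%), namely Orc1, Cdc6, Mcm5, Mcm6, Mcm7, Pola1 and Rfc3. It was present in 359 (2.85%) of the 12596 tested genes that had a promoter sequence. The CCAAT box, searched on both strands as well, was present in 21 of the 36 (58.33%), against 36.04% of all promoters. The windows printed here belong to the gene with the largest difference between groups, Tk1, and to 3 helicase and licensing genes with motif matches. Capitals mark E2F matches, and each is written 5′ to 3′ on the strand of its gene. Tk1 lies at chr11:117826015-117826264 (minus strand), Cdc6 at chr11:98907901-98908150 (plus strand), Mcm5 at chr8:75109259-75109508 (plus strand) and Mcm6 at chr1:128359706-128359955 (minus strand).
Tk1: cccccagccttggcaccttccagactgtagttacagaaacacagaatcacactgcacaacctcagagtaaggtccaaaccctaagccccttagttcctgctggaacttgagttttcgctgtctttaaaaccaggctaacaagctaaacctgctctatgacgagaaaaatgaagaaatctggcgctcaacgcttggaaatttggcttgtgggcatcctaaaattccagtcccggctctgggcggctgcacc
Cdc6: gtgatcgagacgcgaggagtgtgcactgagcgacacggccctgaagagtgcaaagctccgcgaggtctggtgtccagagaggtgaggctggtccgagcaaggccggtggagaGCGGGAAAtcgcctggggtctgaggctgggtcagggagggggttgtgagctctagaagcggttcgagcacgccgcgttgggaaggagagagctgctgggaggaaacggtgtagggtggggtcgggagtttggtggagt
Mcm5: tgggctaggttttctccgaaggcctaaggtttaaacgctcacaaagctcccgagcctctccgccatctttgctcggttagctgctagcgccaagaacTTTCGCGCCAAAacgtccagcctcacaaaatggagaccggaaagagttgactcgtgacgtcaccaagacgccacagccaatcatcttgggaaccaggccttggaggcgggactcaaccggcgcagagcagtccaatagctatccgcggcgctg
Mcm6: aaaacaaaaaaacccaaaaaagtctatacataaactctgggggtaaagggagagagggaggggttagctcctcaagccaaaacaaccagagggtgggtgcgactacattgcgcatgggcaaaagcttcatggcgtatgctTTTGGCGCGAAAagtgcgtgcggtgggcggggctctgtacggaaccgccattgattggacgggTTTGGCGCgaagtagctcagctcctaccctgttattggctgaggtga
The Tk1 window held no match. The single Cdc6 match began 138 bases before the start. In the Mcm5 window 2 matches overlapped, beginning 153 and 149 bases before the start. Mcm6 had 3 matches, of which those at 110 and 106 bases overlapped and the other began at 47 bases. A match is a description of letters, and absence of these letters says nothing about binding of the factor.

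Over all genes tested, the correlation between arrays lay between 0.942 and 0.994. Adgre1, which encodes the antigen used for the sort, averaged 13.23 in remission, 13.24 in nephritic and 13.08 in prenephritic arrays on the log2 scale. The 11 macrophage markers had a log2 summed level of 16.26 to 16.51 in remission, 16.27 to 16.49 in nephritic and 16.16 to 16.48 in prenephritic arrays. Of the 11, Mertk and Fcgr1 rose in nephritic against prenephritic arrays (1.22 ± 0.21 and 0.63 ± 0.14) and fell in remission against nephritic arrays (-1.26 ± 0.24 and -0.55 ± 0.16), and the other 9 were called in neither comparison. Kidney tubule genes set some arrays apart. A tubule score, the mean centred log2 value of 21 genes, was 1.05, 1.37, 0.67 and -0.04 in remission replicates 1 to 4, while it ran from -2.10 (nephritic replicate 3) to 0.57 in nephritic arrays and from -0.96 to 0.79 in prenephritic arrays. None of the 44 genes had a mean below the lower quartile of all values, 4.99.

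All 44 genes were lower on average in remission than in nephritic arrays, and 25 fell past the threshold (limma, Benjamini-Hochberg adjusted p under 0.05 over all genes). That is 56.8% of the 44, where 10.0% of all genes fell and 3.27% rose in the same comparison. Tk1, Cdc6, Ccne1 and Rrm2 had the largest decreases. The nephritic arrays were in turn higher than the prenephritic arrays for 6 of the 44 genes (13.6%), where 6.74% of all genes rose and 5.32% fell. No gene of the 44 fell in nephritic arrays. Both comparisons use the nephritic arrays, so the values of each gene are given side by side and no correlation is given.

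Averaged over the 44 genes and centred on all arrays, the log2 level was -0.39, -0.35, -0.28 and -0.18 in remission replicates 1 to 4. The same mean ran from 0.04 to 0.31 in nephritic arrays and from -0.12 to 0.22 in prenephritic arrays. The remission arrays were thus all below every other array, and the nephritic and prenephritic ranges overlapped through prenephritic replicates 1 and 4. In remission replicates 1 to 4, 35, 35, 30 and 25 of the genes were below every nephritic array.

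**Figure D1:**
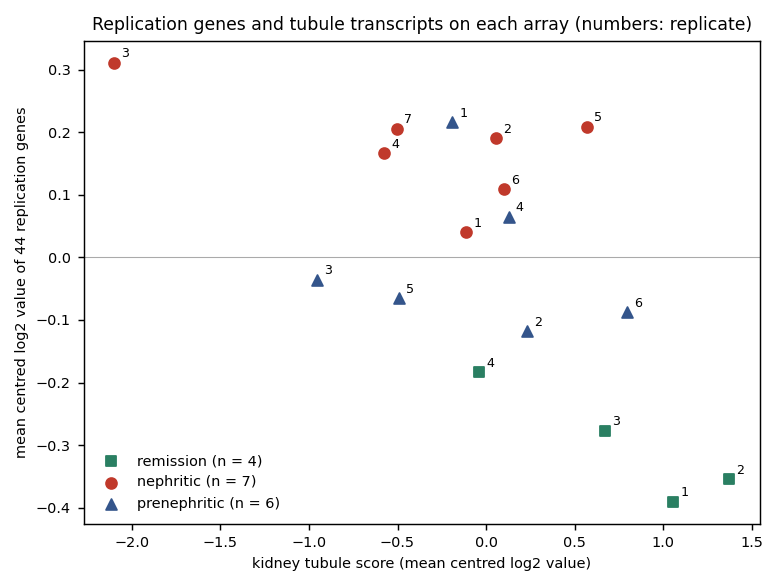
Each point is 1 of the 17 arrays, marked by group and replicate number, with the kidney tubule score (mean centred log2 value) on the horizontal axis and the mean centred log2 value of the 44 genes on the vertical axis. The remission arrays lie at -0.39 to -0.18 on the vertical axis, below all nephritic and prenephritic arrays, and the 2 lowest of them have the highest tubule scores. Remission replicate 4, at -0.18, has a tubule score of -0.04, within the nephritic range.

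Of the 44 genes, the one with the largest difference in both comparisons was Tk1, one of the genes for the supply of deoxynucleotides. Tk1 encodes the thymidine kinase that salvages thymidine, and it was at 7.88, 7.97, 8.56 and 7.98 in remission replicates 1 to 4. Its nephritic arrays ran from 9.58 to 10.24 with a median of 9.83, and its prenephritic arrays from 7.73 to 8.51 with a median of 8.24. Every nephritic array was above every remission and every prenephritic array, and the remission and prenephritic arrays overlapped. Tk1 was 3.15-fold higher in nephritic than prenephritic arrays (log2 difference 1.66 ± 0.15 SE, limma adjusted p = 5.72e-06). In remission it was 0.294 of the nephritic level (-1.77 ± 0.17, adjusted p = 1.78e-05), and it differed from prenephritic arrays by -0.11 ± 0.17 (adjusted p = 0.75).

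Rrm2, the regulated small subunit of ribonucleotide reductase, was at 10.10, 10.57, 10.32 and 10.00 in remission replicates 1 to 4. It ran from 10.90 to 11.44 (median 11.19) in nephritic arrays and from 9.83 to 11.11 (median 10.48) in prenephritic arrays. The nephritic arrays were above all remission arrays, and overlapped with the highest prenephritic one. Rrm2 was 1.59-fold higher in nephritic than prenephritic arrays (0.67 ± 0.16, limma adjusted p = 0.011) and fell in remission against nephritic arrays (-0.91 ± 0.18, adjusted p = 0.0036). Rrm1, the large subunit, fell in remission against nephritic arrays too (-0.47 ± 0.09, adjusted p = 0.0024), while its nephritic minus prenephritic difference was 0.23 ± 0.08 (adjusted p = 0.071). Tyms, which makes thymidylate de novo, differed by -0.03 ± 0.10 between remission and nephritic arrays and by -0.04 ± 0.09 between nephritic and prenephritic arrays. Dut, which clears dUTP, differed by -0.05 ± 0.11 and -0.00 ± 0.10 in the same 2 comparisons. Of the 5 genes of this group, 2 were higher in nephritic than prenephritic arrays and 3 were lower in remission than nephritic arrays.

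**Figure D2:**
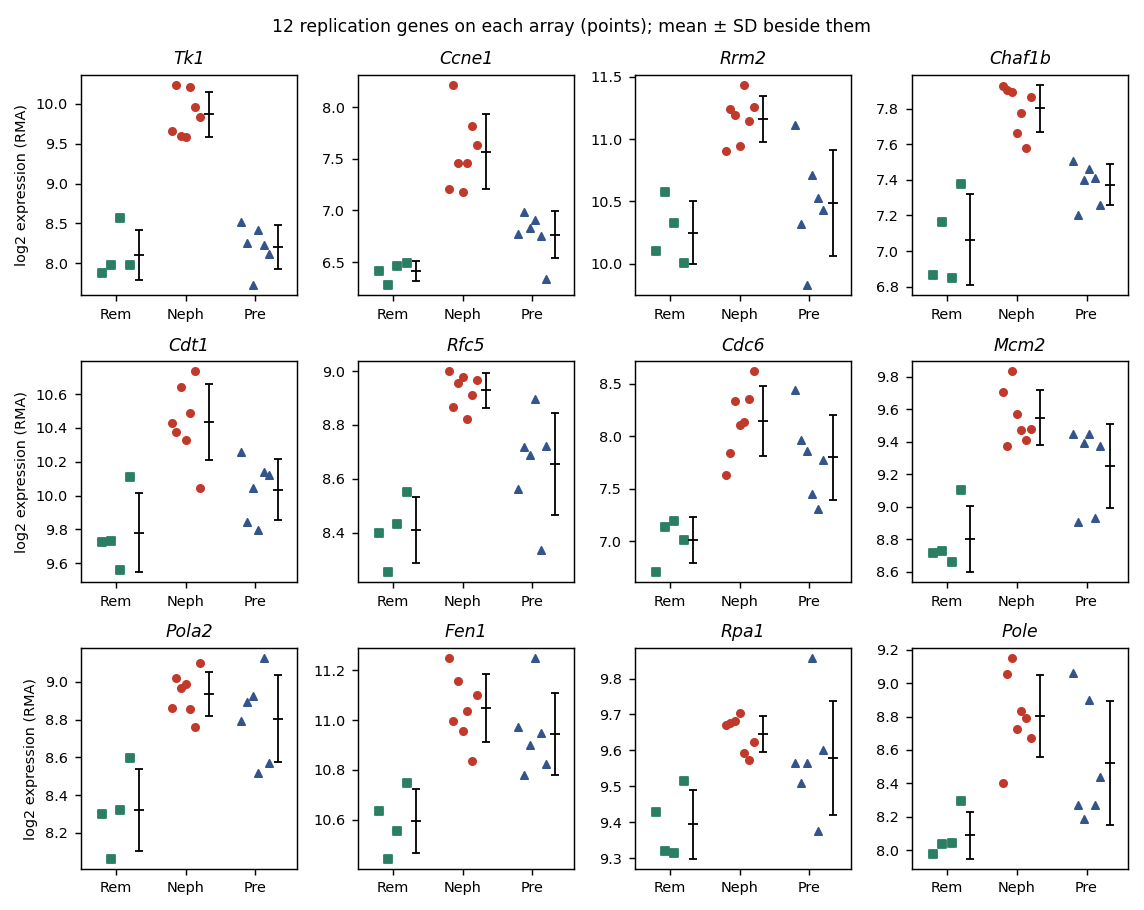
Log2 values of 12 of the genes on the arrays of the remission, nephritic and prenephritic groups, from left to right in each panel, with the mean and SD of each group as a bar beside its points. The vertical axes differ between genes and do not start at 0, and Tk1, Chaf1b and Ccne1 have nephritic points above all points of both other groups.

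The genes that control entry into S phase were led by Ccne1, which encodes cyclin E1. Its remission replicates 1 to 4 were at 6.41, 6.28, 6.46 and 6.49. Nephritic arrays ran from 7.18 to 8.22 with a median of 7.46, and prenephritic arrays from 6.34 to 6.98 with a median of 6.80. The nephritic arrays did not overlap with either other group. Ccne1 was 1.74-fold higher in nephritic than prenephritic arrays (0.80 ± 0.15, limma adjusted p = 0.0017) and 0.449 of the nephritic level in remission (-1.16 ± 0.16, adjusted p = 0.00034). E2f1, an E2F factor that activates S-phase genes, fell in remission against nephritic arrays (-0.48 ± 0.15, adjusted p = 0.041), the gene just inside the threshold, and this call was kept under 14 of the 28 alternatives that kept the threshold. It was lost without remission replicate 1 or 2, nephritic replicate 1, 3, 4, 6 or 7, or prenephritic replicate 1. Ccne2, cyclin E2, had a difference of -0.55 ± 0.23 in that comparison (adjusted p = 0.12).

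Among the 5 origin licensing genes, Cdt1 rose in nephritic against prenephritic arrays, and Cdc6, Cdt1 and Orc1 fell in remission against nephritic arrays. Cdt1, the loader of the helicase, was at 9.72, 9.73, 9.56 and 10.11 in remission replicates 1 to 4. It ran from 10.04 to 10.73 (median 10.43) in nephritic and from 9.80 to 10.26 (median 10.08) in prenephritic arrays, and the groups overlapped. The Cdt1 increase of 0.40 ± 0.11 (limma adjusted p = 0.030) was kept under 16 of these 28 alternatives, and it was lost without nephritic replicate 1, 3, 5 or 6 or prenephritic replicate 2, 3 or 4. The decrease of Cdt1 in remission against nephritic arrays was -0.65 ± 0.13 (adjusted p = 0.0033).

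Cdc6 was at 6.71, 7.13, 7.19 and 7.01 in remission replicates 1 to 4, against 7.63 to 8.62 (median 8.14) in nephritic arrays. Its prenephritic arrays ran from 7.31 to 8.44 with a median of 7.81. Every remission array was below every other array. Cdc6 was 0.456 of the nephritic level in remission (-1.13 ± 0.20, limma adjusted p = 0.0016), and its difference from prenephritic arrays was -0.79 ± 0.21 (adjusted p = 0.15). Its nephritic minus prenephritic difference was 0.35 ± 0.18 (adjusted p = 0.24). Orc1, the largest subunit of the origin recognition complex, fell by 0.79 ± 0.19 in remission against nephritic arrays (adjusted p = 0.013), a call that was lost without remission replicate 1. Orc6 and Gmnn, the inhibitor of Cdt1, had differences of -0.28 ± 0.09 and -0.34 ± 0.12 there, which did not pass the threshold (adjusted p = 0.056 and 0.074).

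Of the 10 genes of the helicase group, 9 fell in remission against nephritic arrays, and Mcm4 was the exception (-0.23 ± 0.10, adjusted p = 0.14). None rose or fell in nephritic against prenephritic arrays (limma), where 2 were higher at an unadjusted p under 0.05. Mcm2 was at 8.72, 8.73, 8.66 and 9.10 in remission replicates 1 to 4, against 9.37 to 9.83 (median 9.48) in nephritic arrays and 8.91 to 9.45 (median 9.38) in prenephritic arrays. Remission and nephritic arrays did not overlap for Mcm2, whereas remission replicate 4 lay above the lowest prenephritic array. Mcm2 fell by 0.75 ± 0.13 in remission against nephritic arrays (adjusted p = 0.0014) and Mcm7 by 0.45 ± 0.09 (adjusted p = 0.0026).

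Mcm5 and Mcm6, whose promoters are shown above, fell in remission by 0.65 ± 0.13 (adjusted p = 0.0042) and 0.59 ± 0.12 (adjusted p = 0.0039) against nephritic arrays. Mcm5 was at 8.31, 8.28, 8.30 and 8.79 in remission replicates 1 to 4, against a nephritic range of 8.73 to 9.27 (median 9.16), so remission replicate 4 overlapped with the nephritic arrays. Gins2, a subunit of the GINS complex, was at 8.20, 8.15, 8.18 and 8.65 in remission, against 8.68 to 9.06 (median 8.89) in nephritic and 8.15 to 8.88 (median 8.46) in prenephritic arrays. Gins2 was the gene just outside the threshold between nephritic and prenephritic arrays (0.38 ± 0.12, adjusted p = 0.052), and it fell in remission against nephritic arrays (-0.59 ± 0.14, adjusted p = 0.0094). Mcm10, Cdc45, Gins1 and Mcm3 also fell in remission, by 0.44 to 0.72 on the log2 scale. The Cdc45 and Mcm3 calls were lost without remission replicate 1 or 2, and that of Mcm3 without remission replicate 3 as well.

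Among the 8 polymerase and primase genes, Pola2, Prim2 and Pole fell in remission against nephritic arrays, and no gene was called between nephritic and prenephritic arrays. Between nephritic and prenephritic arrays, none of the 8 had an unadjusted p under 0.05. Pola2, a non-catalytic subunit of polymerase alpha, was at 8.30, 8.06, 8.32 and 8.59 in remission replicates 1 to 4. Its nephritic arrays ran from 8.76 to 9.10 (median 8.97) and its prenephritic arrays from 8.52 to 9.12 (median 8.84). Remission was below all nephritic arrays and overlapped with the prenephritic ones. Pola2 fell by 0.62 ± 0.11 in remission against nephritic arrays (limma adjusted p = 0.0023) and had a difference of -0.48 ± 0.12 from prenephritic arrays (adjusted p = 0.14).

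Pole, the catalytic subunit of the polymerase assigned to the leading strand, was at 7.98, 8.04, 8.04 and 8.29 in remission replicates 1 to 4. It ran from 8.40 to 9.15 (median 8.79) in nephritic arrays and from 8.19 to 9.06 (median 8.36) in prenephritic arrays. Remission and nephritic arrays did not overlap for Pole, and the decrease was -0.72 ± 0.17 (adjusted p = 0.00996). Prim2, the large primase subunit, fell by 0.45 ± 0.12 (adjusted p = 0.017), a call lost without remission replicate 1 or 2. The remaining 5 differences between remission and nephritic arrays ran from -0.11 for Prim1 to -0.39 for Pole2, and did not pass the threshold.

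The clamp loader, single-strand binding and Okazaki fragment groups had fewer calls. Of 5 clamp loader genes measured, Rfc5 alone was called. It rose in nephritic against prenephritic arrays and fell in remission against nephritic arrays, and the other 4 passed in neither comparison. Rfc5 was at 8.40, 8.25, 8.43 and 8.55 in remission replicates 1 to 4, against 8.82 to 8.999 (median 8.96) in nephritic arrays and 8.33 to 8.90 (median 8.70) in prenephritic arrays. Nephritic and remission arrays did not overlap, and nephritic and prenephritic arrays did. Its nephritic increase was 0.27 ± 0.08 (limma adjusted p = 0.028), lost without nephritic replicate 1 or 7 or prenephritic replicate 1 or 5, and its remission decrease against nephritic arrays was -0.52 ± 0.09 (adjusted p = 0.0011).

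Rpa1, the large subunit of the protein that coats single-stranded DNA, fell in remission against nephritic arrays (-0.25 ± 0.07, adjusted p = 0.034). Its remission replicates were at 9.43, 9.32, 9.31 and 9.51, against 9.57 to 9.70 (median 9.67) in nephritic arrays. This call was kept under 16 of the 28 alternatives, and was lost without remission replicate 1, 2 or 3 or nephritic replicate 1, 3, 4 or 7. Rpa2 was at 8.30, 8.24, 8.72 and 8.86 in remission replicates 1 to 4, against 8.44 to 8.84 (median 8.76) in nephritic and 8.62 to 9.01 (median 8.93) in prenephritic arrays. All groups overlapped, and Rpa2 was called in no comparison. Fen1, the flap endonuclease of Okazaki fragment processing, was at 10.63, 10.44, 10.55 and 10.75 in remission, against 10.84 to 11.25 (median 11.04) in nephritic and 10.78 to 11.25 (median 10.92) in prenephritic arrays. Remission was below every other array for Fen1, which fell by 0.45 ± 0.09 against nephritic arrays (adjusted p = 0.0046). Lig1, DNA ligase 1, was just outside the threshold (-0.36 ± 0.12, adjusted p = 0.053).

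Of the 3 genes for copying chromatin, Chaf1b changed in both comparisons. It encodes a subunit of the histone chaperone CAF-1 and was at 6.87, 7.16, 6.85 and 7.38 in remission replicates 1 to 4. Nephritic arrays ran from 7.58 to 7.93 (median 7.87) and prenephritic arrays from 7.20 to 7.50 (median 7.41). Nephritic arrays were above all others, and remission and prenephritic arrays overlapped. The nephritic increase over prenephritic arrays was 0.43 ± 0.09 (limma adjusted p = 0.0048), and the remission decrease against nephritic arrays was -0.74 ± 0.10 (adjusted p = 0.00027). Uhrf1, which recruits the maintenance DNA methyltransferase to copied DNA, fell in remission against nephritic arrays (-0.52 ± 0.10, adjusted p = 0.0033). Slbp, the histone mRNA binding protein, was called in neither comparison. Tk1, Ccne1 and Chaf1b were the 3 genes whose calls were kept in both comparisons under all 28 alternatives that kept the threshold. Under a 1.5-fold minimum, Chaf1b no longer passed in nephritic against prenephritic arrays.

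**Figure D3:**
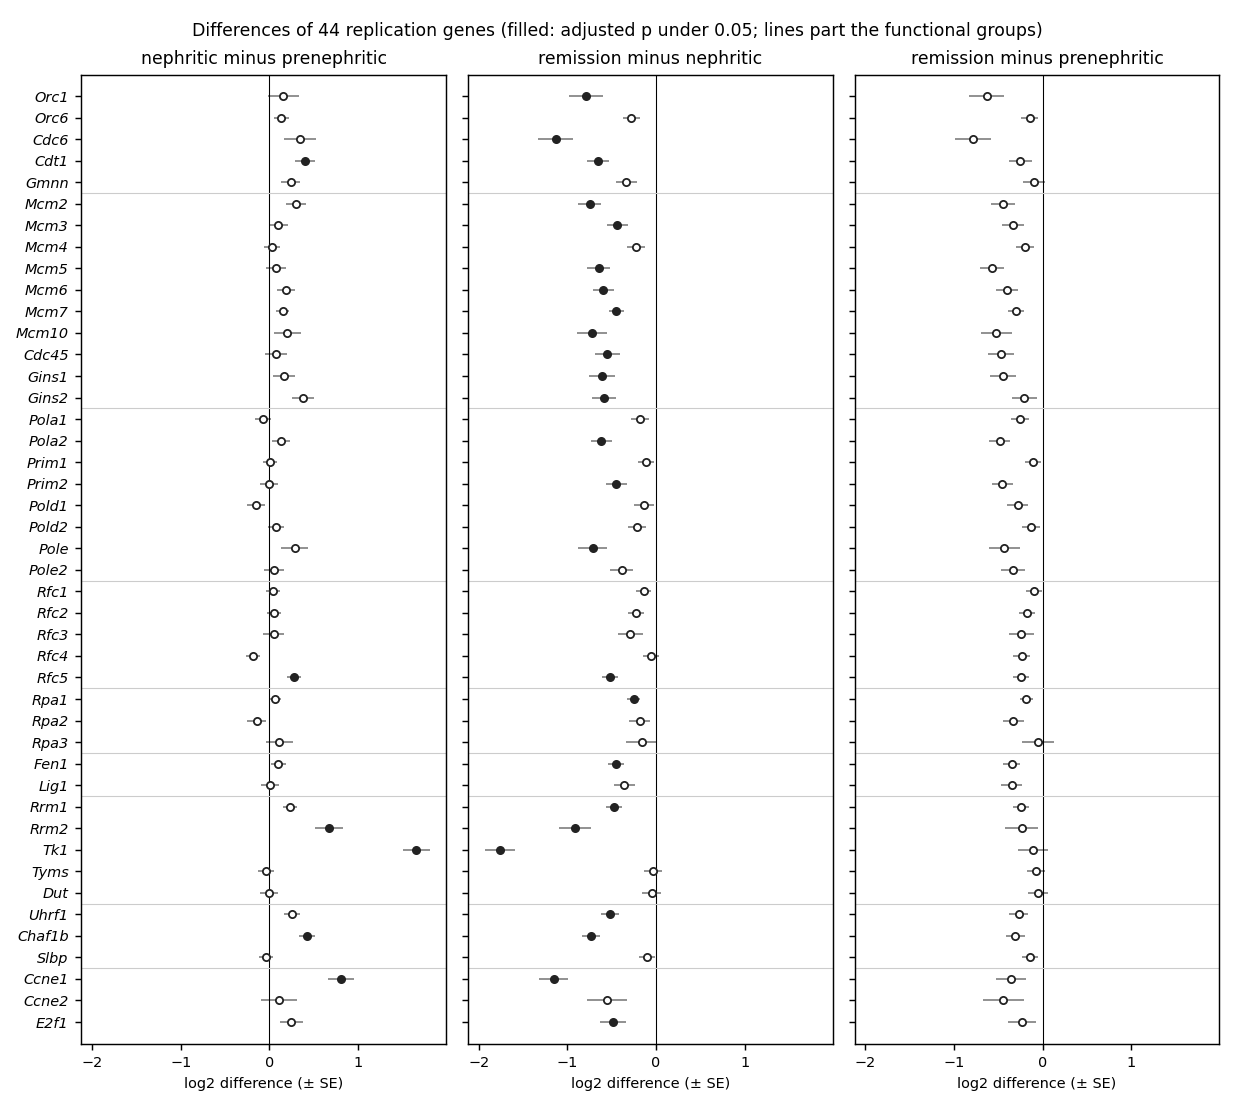
Log2 differences of the 44 genes with their standard errors, in a panel for nephritic minus prenephritic arrays and in 2 panels for remission arrays minus each other group, with filled points for an adjusted p under 0.05. All 44 remission minus nephritic values are below 0, from -1.77 for Tk1 to -0.03 for Tyms.

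The median difference of the 44 genes between remission and nephritic arrays was -0.45, beside -0.03 over all genes tested. Their remission arrays were all below the nephritic arrays for 20 genes, where this held for 6.95% of all genes (all above for 1.70%). Of the 44 genes, 15 were called and fell at least 1.5-fold, where 696 of all 15780 genes did so. Over all genes, 6.06% were called with such a change in either direction. Between nephritic and prenephritic arrays the median was 0.11, beside -0.02 over all genes, and 36 of 44 differences were above 0. At an unadjusted p under 0.05, 11 of the 44 were higher and 1 was lower. Nephritic arrays were all above prenephritic arrays for 3 genes, where this held for 3.07% of all genes (all below for 1.61%). The called genes at least 1.5-fold higher were also 3 of the 44, Tk1, Ccne1 and Rrm2, where 434 of all 15780 genes were. Over all genes, 4.63% were called with such a change in either direction.

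Kidney tubule genes also differed between remission and nephritic arrays. All 21 had higher means in remission than nephritic arrays (median difference 1.15), and 3 rose past the threshold, Calb1, Gatm and Pvalb. Their log2 summed level ran from 15.09 to 16.30 in remission, from 13.44 to 15.66 in nephritic and from 14.24 to 15.80 in prenephritic arrays. With the tubule score in the fit, 15 of the 44 genes fell in remission against nephritic arrays. Calls over all genes went from 2100 to 1295 there, and 43 of the 44 differences stayed below 0. Without nephritic replicate 3 and remission replicates 1 and 2, the 3 arrays at the extremes of the score, the median was -0.38 and 3 of the 44 fell (Tk1, Chaf1b and Ccne1). This left 2 remission arrays, and calls over all genes dropped to 281, against 2100 with every array. The alternative was chosen after seeing the data, and the part of tubule RNA in the decrease was not tested.

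Some markers of other blood cells moved with both comparisons, and others went the other way. Of 8 monocyte markers measured, 4 rose and none fell in nephritic against prenephritic arrays, and 3 fell and none rose in remission against nephritic arrays (Spn, Ccr2 and Plac8). The log2 summed monocyte level ran from 13.17 to 13.62 in remission, from 13.52 to 14.06 in nephritic and from 13.14 to 13.88 in prenephritic arrays. Of 12 B and plasma cell markers, 5 rose and 1 fell in nephritic against prenephritic arrays, and 1 rose and 3 fell in remission against nephritic arrays. Mzb1 rose by 1.95 in the first and fell by 1.85 in the second. Tnfrsf17, with the smallest p of the list in the first, went the other way, falling by 1.73 and then rising by 1.04. The list's summed level ran from 12.36 to 12.69 in remission, from 12.76 to 13.59 in nephritic and from 11.93 to 12.77 in prenephritic arrays. Of 10 T cell markers, 3 rose and 1 fell in nephritic arrays, 1 rose and 4 fell in remission, and 4 of the 10 lay below the lower quartile of all values. Cd3g rose by 1.47 in nephritic arrays and fell by 1.60 in remission, whereas Cd28 fell by 1.76 and then rose by 1.54. The T cell summed level ran from 8.37 to 8.78 in remission, from 8.60 to 9.29 in nephritic and from 8.59 to 8.98 in prenephritic arrays.

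Of 7 dendritic cell markers, 1 rose and 3 fell in nephritic against prenephritic arrays, and 1 rose and 2 fell in remission against nephritic arrays. Their summed level ran from 9.52 to 10.45 in remission, from 8.71 to 10.31 in nephritic and from 10.41 to 11.50 in prenephritic arrays, so the nephritic and prenephritic arrays did not overlap. Xcr1 rose by 2.37 in nephritic arrays and fell by 1.98 in remission, whereas Siglech fell by 2.73 and then rose by 1.92. Among 10 endothelial markers, Pecam1, which leukocytes also express, rose by 1.84 in nephritic against prenephritic arrays and fell by 2.05 in remission against nephritic arrays, and Ehd3 rose in remission. Neutrophil, NK cell, and erythroid and platelet markers were mixed. Of 8 neutrophil markers, Csf3r alone was called. It rose by 0.66 in nephritic against prenephritic arrays and fell by 0.85 in remission against nephritic arrays. The neutrophil summed level ran from 9.615 to 11.25 in remission, from 10.65 to 11.19 in nephritic and from 9.66 to 12.14 in prenephritic arrays. Of the 8, 4 lay below the lower quartile of all values. Klrd1 (NK cell) fell by 2.04 and Pf4 (platelet) by 0.67 in nephritic arrays, and neither was called in remission against nephritic arrays. There Klrb1c and Gzmb (NK cell) fell by 0.66 and 0.80, and Klf1 (erythroid) rose by 0.58. Of 8 NK cell markers, 5 lay below the lower quartile of all values. Gzmb averaged 4.22 in remission and 5.02 in nephritic arrays. The NK cell summed level ran from 7.92 to 8.94 in remission, from 8.12 to 8.85 in nephritic and from 8.27 to 10.84 in prenephritic arrays. Of 10 fibroblast and mesangial markers, Mgp rose by 1.47 in nephritic arrays and fell by 0.67 in remission. Itga8 of that list went the other way, falling by 0.90 and then rising by 0.87. None of 4 podocyte markers was called in either comparison. The part of any of these cells in the differences of the replication genes was not tested.

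In remission against prenephritic arrays, no gene of the 44 was called (limma, smallest adjusted p 0.133, for Mcm5), where 1 gene of 15780 fell (0.00634%) and none rose. All 44 differences were below 0, with a median of -0.26 beside -0.05 over all genes, and 25 were lower and none higher at an unadjusted p under 0.05. Remission arrays were all below prenephritic arrays for Cdc6, Prim2, Fen1 and Uhrf1, where this held for 1.93% of all genes (all above for 0.393%). When arrays were weighted by their fit, 8 genes fell, Cdc6, Mcm2, Mcm5, Mcm6, Pola2, Prim2, Fen1 and Chaf1b, and over all genes 358 were called.

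Of the promoters with an E2F match, 5 were among the 21 of the genes lower in remission than nephritic arrays that had a promoter window (23.81%), and 2 were among the 15 not called there (13.33%). None of the 6 genes higher in nephritic than prenephritic arrays had a match. Over the 36 genes with a window the share was 19.44%, and over all promoters 2.85%. These sets are small, and a difference between them was not tested.

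Other genes of DNA replication and the cell cycle were counted in the same way. All 19 mitosis genes measured of 20 listed fell in remission against nephritic arrays (median -1.19), and 17 rose in nephritic against prenephritic arrays (median 0.68). Ccnb2, cyclin B2, rose by 1.08 ± 0.17 in nephritic arrays (limma adjusted p = 0.00064) and fell by 1.56 ± 0.19 in remission (adjusted p = 0.00016). Of 33 other replication factors, 1 rose and 2 fell in nephritic arrays, and 6 fell in remission. Dbf4, the activator of the Cdc7 kinase, did both (0.43 ± 0.12, adjusted p = 0.021, and -0.74 ± 0.13, adjusted p = 0.0016), whereas Donson and Orc3 fell in nephritic arrays.

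In purine and pyrimidine synthesis, 8 of 32 measured genes rose in nephritic against prenephritic arrays, none fell, and in remission against nephritic arrays 2 rose and 9 fell. Aprt, the adenine salvage enzyme, rose by 0.63 ± 0.07 (limma adjusted p = 3.0e-05) and fell by 0.47 ± 0.08 in remission (adjusted p = 0.0011). Mthfd2, an enzyme of mitochondrial folate metabolism, rose by 0.76 ± 0.17 (adjusted p = 0.0080) and fell by 1.08 ± 0.20 (adjusted p = 0.0019). Of 31 E2F, RB, cyclin and inhibitor genes, 4 rose and 2 fell in nephritic arrays, and 13 fell and none rose in remission against nephritic arrays. Ccnd3, cyclin D3, rose by 0.51 ± 0.12 (adjusted p = 0.012) and fell by 0.73 ± 0.14 (adjusted p = 0.0029). Cdkn2a, the locus of the inhibitor p16, rose by 1.24 ± 0.29 (adjusted p = 0.010) and fell by 1.08 ± 0.33 in remission (adjusted p = 0.039). Myb, at low group means of 3.99 to 4.72, fell by 0.73 ± 0.14 in nephritic arrays (adjusted p = 0.0027). E2f3 fell by 1.17 ± 0.21 in remission (adjusted p = 0.0017). None of these lists had a gene called between remission and prenephritic arrays.

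**Figure D4:**
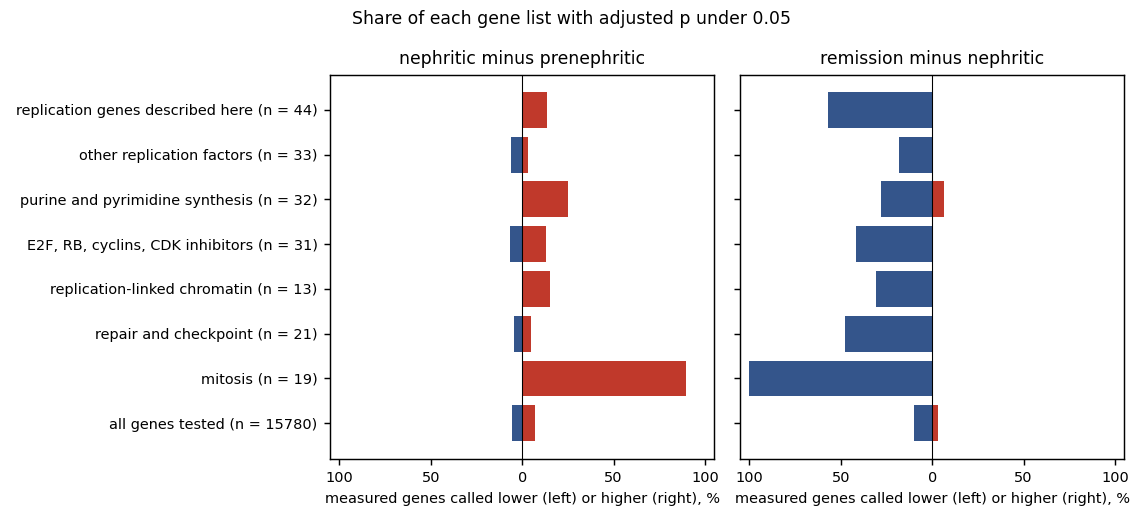
Bars give the percent of measured genes of each list called higher (to the right) or lower (to the left) at an adjusted p under 0.05, for nephritic minus prenephritic and remission minus nephritic arrays, with all genes tested in the bottom row. The 44 replication genes reach 13.6% higher and 56.8% lower, beside 6.74% and 10.0% of all genes.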

How the data were processed

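RNA of the sorted macrophages was isolated and labelled per the labels' protocols and hybridised to 17 arrays. The authors deposited log2 values made by RMA (background correction, quantile normalization and probe summary), per the submitters' processing notes. Quantile normalization hides a change of total RNA, and array number limits precision. Neither probe definition nor genome build is stated in the sources at hand. Of 16539 probe sets, 64 controls and 695 without a symbol were left out, leaving 15780. limma 3.58.1 (R 4.3.3) fitted 1 mean per group to all arrays (14 residual degrees of freedom). Tests were two-sided and adjusted by Benjamini-Hochberg over all genes, with a threshold of 0.05. Errors are standard errors. The fit was tested on simulated data.

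The genes and lists were chosen with earlier results of these data known. Values per array are given for the gene with the smallest p in each functional group and comparison. Mcm5, Rrm2 and others beyond that rule were chosen after their values were seen. Alternatives changed the normalization, weights, variance prior, filter, threshold, block and tubule covariate, and left out arrays.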

Additional observations from a re-analysis of the deposited data

Results flagged for a closer look

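Of 132 combinations of gene and group, 11 held 1 array far from the rest of its group, judged by the gap to the nearest array over the group's range, where chance gives about 1 in 20. Remission replicate 4 was the highest of its group for Mcm2 (9.10), Mcm5 (8.79), Gins1 (9.41) and Gins2 (8.65). Remission replicate 3 was the highest for Cdc45 (7.19) and Tk1 (8.56). Prenephritic replicate 5 was the lowest for Pold1 (9.19) and Pold2 (8.20). Single low arrays were nephritic replicate 2 for Mcm6 (10.62), nephritic replicate 6 for Rpa2 (8.44) and prenephritic replicate 6 for Ccne1 (6.34).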

How the results depend on the processing

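The counts among the 44 genes were 6 higher in nephritic than prenephritic arrays, 25 lower in remission than nephritic arrays and 0 in remission against prenephritic arrays. Array weights gave 8 lower in the last comparison, lost Cdt1 in the first, and added Orc6, Gmnn, Pole2, Rfc2 and Lig1 to the 25 in the second. Calls over all genes were then 1969, 3624 and 358 in the 3 comparisons, against 1904, 2100 and 1 in the main fit. A 1.5-fold minimum left 3 and 15 in the first and second, and an adjusted p under 0.01 left 3 and 18. Over all genes, 730 and 957 passed with the 1.5-fold minimum, and 892 and 863 under 0.01. The tubule covariate left 15 in the second (1295 over all genes). Leaving out the 3 arrays with extreme tubule scores, an alternative chosen after seeing the data, left 3 (281 over all genes). There the difference of Rpa2 remission minus nephritic turned to 0.0858 (adjusted p = 0.862) and that of Tk1 remission minus prenephritic to 0.0618 (adjusted p = 0.994). The cause of these differences was not tested. Leaving out each array in turn gave 5 to 8, 19 to 27 and 0 to 1, with 8 without prenephritic replicate 1, 19 without remission replicate 1, and 1 (Pola2) without prenephritic replicate 6. Calls over all genes in those fits were 1607, 1121 and 199, against 1904, 2100 and 1 with every array. Nephritic replicate 6 and prenephritic replicate 5 stood apart in earlier results of these data, and leaving out both gave 4, 26 and 0, the first losing Cdt1 and Rfc5. Over all genes these counts were 1236, 2048 and 0. With the replicate number as a block the counts were 4, 22 and 0, the first losing Rfc5 and Rrm2. Over all genes the block gave 1175, 1757 and 0. After each group's mean was subtracted from every gene, same-numbered arrays correlated at -0.261 to 0.797. Nephritic replicate 3 correlated best with prenephritic replicate 3 (0.797), while replicate 1 of these groups gave -0.261. These values do not settle whether the numbers pair the samples.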

Other observations

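Among 21 measured genes of replication-linked repair and checkpoint control, 10 fell and none rose in remission against nephritic arrays, and 1 rose and 1 fell in nephritic against prenephritic arrays. Brca1, which repairs broken DNA by homologous recombination, rose by 0.51 ± 0.13 in nephritic arrays (limma adjusted p = 0.016) and fell by 0.90 ± 0.14 in remission (adjusted p = 0.00082). Msh6, a mismatch repair gene, fell by 0.33 ± 0.07 in nephritic arrays (adjusted p = 0.0034). Of 13 genes of replication-linked chromatin, 2 rose in nephritic arrays and 4 fell in remission. Asf1b, a histone chaperone, fell by 1.00 ± 0.13 in remission against nephritic arrays (adjusted p = 0.00017), and Ezh2, the Polycomb methyltransferase, by 0.59 ± 0.11 (adjusted p = 0.0018).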
